A study of Homo sapiens with 20 samples.

Results

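The unfolded protein response and the folding machinery of the endoplasmic reticulum (ER) were followed through 34 genes, chosen by symbol, in Caco-2 cells exposed to probiotic bacteria, to bacterial supernatants or to medium alone. Of these, 33 had a probe set that the platform annotation gives to that gene alone, out of 19775 genes named in this way, and they were covered by 78 probe sets. The ligase gene SYVN1 was left without a value, because its only probe set is also annotated to a microRNA gene. Caco-2, an established line from a human colon carcinoma, comes to resemble absorptive cells of the small intestine when it matures, and here it had 5 days on inserts to do so. In the probiotic array set, with 2 arrays in each of 7 groups, cells were co-cultured for 8 h with live bacteria at 20 to 100 per Caco-2 cell, which were Bifidobacterium lactis 420, Lactobacillus salivarius Ls-33 or Lactobacillus acidophilus NCFM, received 10% cell-free supernatant of an MRS broth culture of 1 strain for 24 h, or were kept in medium for 8 h. In a second array set, with 3 arrays per group, cells received 5% cell-free supernatant of an LB broth culture of Escherichia coli O157:H7, an enterohaemorrhagic strain, or medium alone, both for 24 h. Each treatment is compared with the medium of its own set, and no group received broth alone. The arrays of the probiotic set are described as duplicates and may come from 1 culture per group, so p-values measure only the spread between these arrays.

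The ER folds secreted and membrane proteins with the help of chaperones, which hold unfolded chains, and of protein disulfide isomerases, which form and rearrange disulfide bonds. Proteins that cannot be folded are recognised by lectins and passed through a membrane complex to the proteasome, a route called ER-associated degradation. When unfolded protein builds up, the sensors IRE1alpha (gene ERN1), ATF6 and PERK (gene EIF2AK3) start the unfolded protein response. IRE1alpha splices the mRNA of the transcription factor XBP1, ATF6 is cut to release a transcription factor, and PERK slows translation and favours that of ATF4. ATF6 and spliced XBP1 act on many chaperone and degradation genes through short promoter elements.

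Promoters of the members were searched for these elements. Members were chosen by symbol as genes of a response known to act through them. A high share of members with an element is therefore no independent result. The ER stress element ERSE was searched as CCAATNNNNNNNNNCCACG and the related ERSE-II as ATTGGNCCACG, on both strands. The first letters of ERSE are a CCAAT box, and both elements end in the same 5 letters. RefSeq promoter windows of assembly GRCh38.p14, from 250 bases before to 50 bases after each annotated start, were at hand for 31 of the 34 members. ERSE was found in 7 members, HSPA5, HSP90B1, CALR, CANX, PDIA6, XBP1 and CRELD2, which is 22.6% of the members with a window, against 0.0769% of all 35116 windows. ERSE-II was found in HYOU1, SDF2L1 and HERPUD1, which is 9.68% of the members with a window, against 0.0541% of all windows. The 2 kinds of share differ in unit. Those of members count genes with the element in any of their windows. Those of all windows count single windows, with the windows of members among them. The stretches printed here are those of the genes whose expression is described most closely, with the element in capitals, and capitals that begin CGTGG are an ERSE read on the opposite strand. They lie at chr16:56931995-56932065, plus strand for HERPUD1, chr9:125241361-125241439, minus strand for HSPA5, chr12:103930186-103930369, plus strand for HSP90B1, chr19:12938359-12938432, plus strand for CALR and chr22:28800573-28800651, minus strand for XBP1, all before the annotated start of the gene.
HERPUD1: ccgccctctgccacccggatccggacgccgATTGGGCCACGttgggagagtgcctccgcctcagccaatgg
HSPA5: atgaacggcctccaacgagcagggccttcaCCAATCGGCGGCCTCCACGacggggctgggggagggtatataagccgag
HSP90B1: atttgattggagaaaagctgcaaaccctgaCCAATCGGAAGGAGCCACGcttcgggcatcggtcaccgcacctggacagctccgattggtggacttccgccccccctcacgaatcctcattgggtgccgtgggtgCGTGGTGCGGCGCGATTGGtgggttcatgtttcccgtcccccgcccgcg
CALR: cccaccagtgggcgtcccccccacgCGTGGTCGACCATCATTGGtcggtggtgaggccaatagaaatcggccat
XBP1: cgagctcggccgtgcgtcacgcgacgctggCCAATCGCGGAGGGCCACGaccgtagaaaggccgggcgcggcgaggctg
HSP90B1 held 2 ERSE copies, 1 on each strand, and HYOU1 held 2 copies of ERSE-II. A match describes the letters of the window and was not tested for binding.

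**Figure D1:**
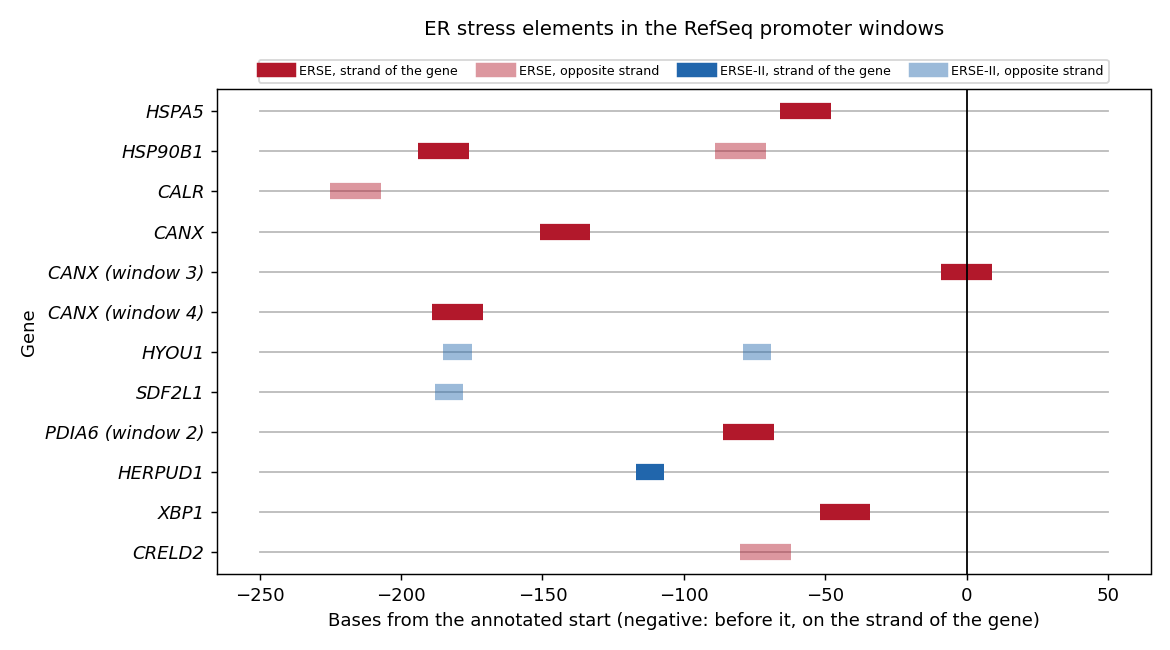
Position of ERSE (red) and ERSE-II (blue) in the RefSeq promoter windows of the 10 members that hold either, in bases from the annotated start on the x axis, with 1 row per window and pale bars for elements on the strand opposite to the gene. The single CANX element appears in 3 overlapping windows of that gene, and the other genes have 1 window each in the plot.

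Median log2 signal lay between 2.66 and 2.72 on all 20 arrays, and arrays of 1 group correlated at 0.994 to 0.997. The difference between 3' and 5' beta-actin controls, a measure of RNA integrity and labelling, averaged 1.40 on the log2 scale in NCFM co-cultures, 1.18 in B. lactis 420 co-cultures and 1.24 in Ls-33 co-cultures and 1.05 to 1.09 in the supernatant groups, against 0.84 in 8 h medium. In the second set it was 2.17 with E. coli supernatant and 2.00 in 24 h medium. These values move with the groups compared below, and their part in the results was not tested. All 10 enterocyte markers with a probe set, among them villin (VIL1) and sucrase-isomaltase (SI), were above the floor used for testing in both sets. Of the markers of cell types that a pure line should lack, 2 of 3 for goblet cells, 4 of 6 for fibroblasts, 2 of 4 for leukocytes and 1 of 3 for endothelium were above it. Mean log2 signal of the enterocyte list per array was 10.83 to 11.04 in co-cultures, against 10.83 to 10.88 in 8 h medium, and highest with Ls-33. For fibroblasts it was 6.41 to 6.66 in co-cultures, against 6.59 to 6.66 in 8 h medium, for leukocytes 2.93 to 3.13 against 2.97 to 3.19, for endothelium 4.31 to 4.49 against 4.51 to 4.54 and for goblet cells 2.85 to 3.16 against 2.88 to 2.96. With E. coli supernatant the range of each list lay apart from 24 h medium. It was higher for enterocytes (10.44 to 10.52, against 10.35 to 10.43 in medium) and leukocytes (3.16 to 3.33, against 2.75 to 2.96). It was lower for fibroblasts (6.51 to 6.67, against 6.95 to 7.03), endothelium (3.87 to 4.10, against 4.29 to 4.44) and goblet cells (2.80 to 2.93, against 2.98 to 3.22). Their part in the results was not tested. In cell lysates of this kind, fewer cells expressing a gene and less RNA per cell cannot be told apart.

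Many genes of the ER folding machinery were lower with live bacteria. Calls were made with limma at a Benjamini-Hochberg adjusted p under 0.05 over 11865 genes. With live NCFM, 20 of 33 members were lower and 2 higher than in 8 h medium, where 18.4% and 16.8% of all genes tested were. With live B. lactis 420, 15 were lower and 4 higher, against 16.9% and 18.3% of all genes. With live Ls-33, 13 were lower and 5 higher, against 19.3% and 19.4% of all genes. The median log2 change of the members was -0.26 for NCFM, -0.16 for B. lactis 420 and -0.11 for Ls-33, against -0.0060, 0.0087 and -0.0079 for all genes in the same order. In all 3 co-cultures 12 members were lower, where 11.4% of all genes were, and 2 were higher, where 9.68% were. No member was called in opposite directions by 2 co-cultures, and 8 were called by none of them. All genes were not counted in these ways, so both counts describe the members alone. Counted over all 70 member probe sets above the floor, 44 were lower and 5 higher with live NCFM (19.9% and 14.5% of all probe sets), 31 and 6 with live B. lactis 420 (15.9% and 16% of all), and 26 and 7 with live Ls-33 (16.7% and 17.2% of all). The 3 comparisons share their 2 medium arrays, so they are not independent of each other.

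**Figure D2:**
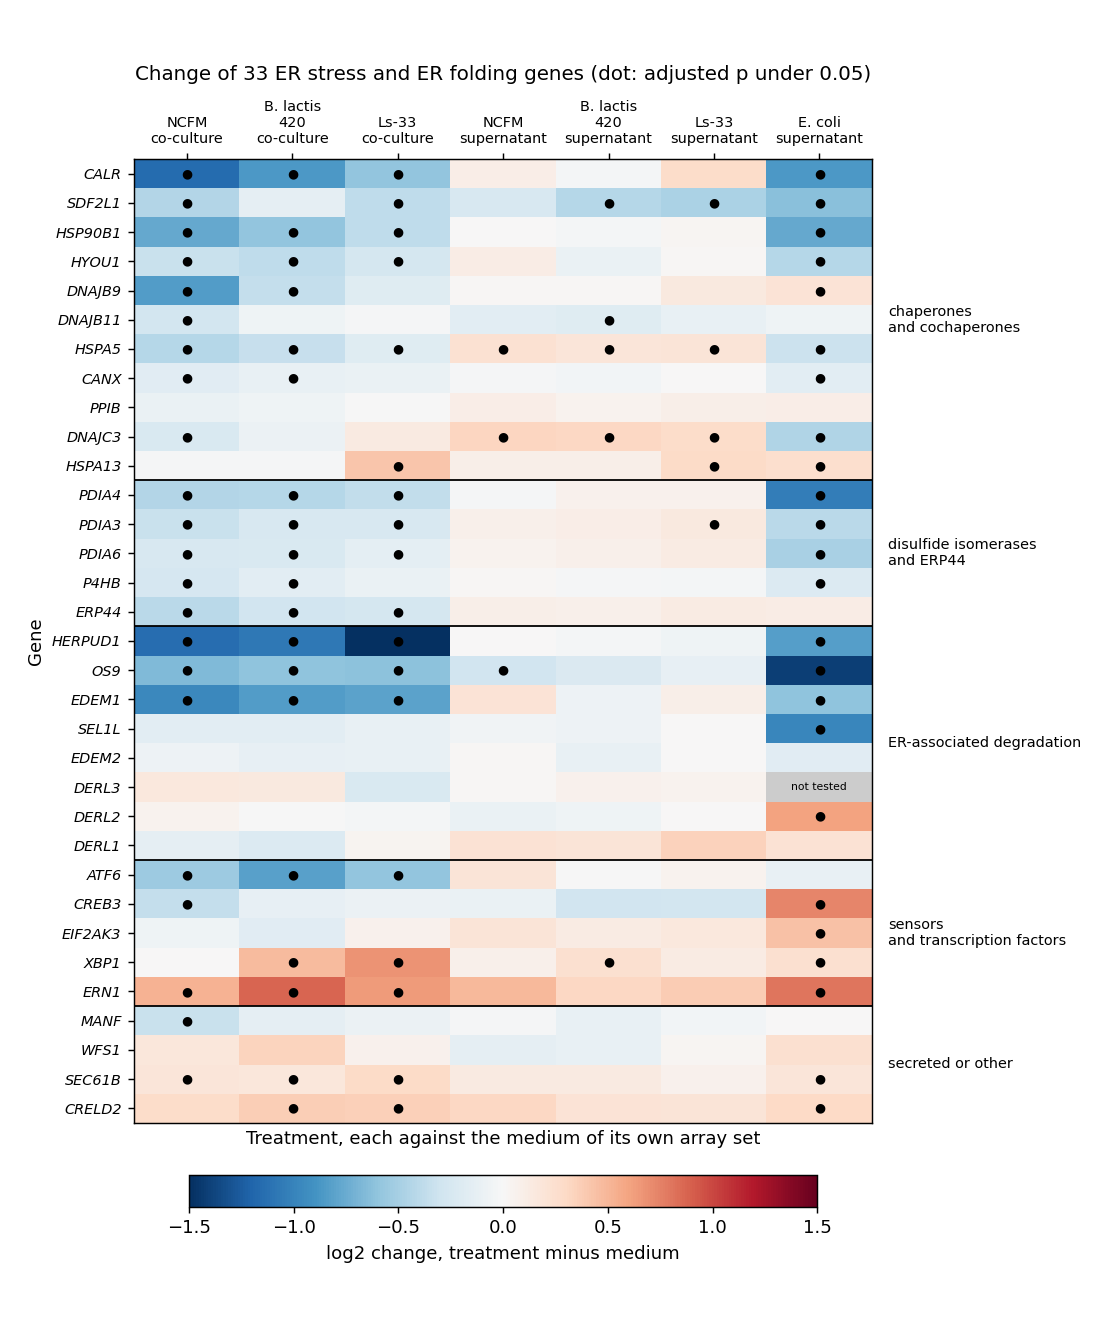
Log2 change of 33 members (rows, grouped by role) in 7 treatments (columns), each minus the medium of its own array set, from blue (lower) to red (higher), with a dot where the adjusted p is under 0.05. HSPA5, HSP90B1, PDIA4, HERPUD1, OS9 and EDEM1 are lower in the 3 co-cultures and with E. coli supernatant, while ERN1 is higher in the same 4 columns and the probiotic supernatant columns are pale.

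HSPA5 encodes BiP, the main ER chaperone of the Hsp70 family and the protein that holds the sensors inactive. Its log2 signal was 12.82 and 12.68 with NCFM, 12.77 and 12.90 with B. lactis 420 and 12.98 and 13.02 with Ls-33, against 13.17 and 13.19 in 8 h medium. None of the 6 co-culture arrays reached the medium arrays, and Ls-33 came nearest. The log2 changes were -0.43 (SE 0.0445, adjusted p = 3.67e-07) with NCFM, -0.35 (SE 0.0445, adjusted p = 5.60e-06) with B. lactis 420 and -0.18 (SE 0.0445, adjusted p = 0.00307) with Ls-33. HSP90B1, the ER member of the Hsp90 family, had log2 signals of 10.67 and 10.40 with NCFM, 10.70 and 10.71 with B. lactis 420 and 10.95 and 10.90 with Ls-33, against 11.38 and 11.23 in 8 h medium. Again no co-culture array reached a medium array, and NCFM was lowest. The log2 changes were -0.77 (SE 0.069, adjusted p = 5.36e-08) with NCFM, -0.60 (SE 0.069, adjusted p = 1.44e-06) with B. lactis 420 and -0.38 (SE 0.069, adjusted p = 2.03e-04) with Ls-33, and the first is 1.7-fold lower. The second HSP90B1 probe set, with a lower mean signal, kept the direction but was not called with Ls-33, and the HSPA5 call with Ls-33 was lost without a trend in the variance model. Both of these HSP90B1 probe sets carry the suffix _x_at, which marks probes that may also bind other transcripts.

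DNAJB9 (ERdj4), a BiP cochaperone that helps to dispose of misfolded proteins, was lowest with NCFM. Its log2 signal was 8.04 and 7.92 with NCFM, 8.46 and 8.48 with B. lactis 420 and 8.72 and 8.56 with Ls-33, against 8.85 and 8.79 in 8 h medium. The change was -0.84 (SE 0.0826, adjusted p = 1.80e-07) with NCFM, -0.35 (SE 0.0826, adjusted p = 0.00246) with B. lactis 420 and -0.18 (SE 0.0826, adjusted p = 0.0968) with Ls-33. Its 2 other probe sets were called lower with NCFM (-0.72 and -0.68) but not with B. lactis 420 (-0.04 and -0.46). DNAJC3 (p58IPK), a BiP cochaperone that binds unfolded chains, had signals of 10.76 and 10.90 with NCFM, 11.02 and 10.94 with B. lactis 420 and 11.12 and 11.28 with Ls-33, against 11.07 and 11.06 in 8 h medium. On the probe set that represents it, DNAJC3 was called with NCFM alone, at -0.23 (SE 0.0727, adjusted p = 0.0171). Of its 3 other probe sets, 2 were called lower with NCFM (-0.87 and -1.29) and 1 was not (-0.13), and with B. lactis 420 1 was called lower (-0.60). DNAJB11 (ERdj3), which hands unfolded chains to BiP, has 1 probe set and was called with NCFM alone, with signals of 10.60 and 10.67 against 10.93 and 10.91 in medium and a change of -0.28 (SE 0.05, adjusted p = 2.10e-04). The DNAJC3 call on the representing probe set was lost without single arrays, the change then being between -0.23 and -0.16 without 8 h medium replicate 1 or 2 or NCFM co-culture replicate 1 (adjusted p = 0.0696 to 0.154).

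HYOU1 (GRP170), which exchanges nucleotide on BiP, had signals of 10.77 and 10.67 with NCFM, 10.67 and 10.68 with B. lactis 420 and 10.74 and 10.84 with Ls-33, against 11.03 and 11.07 in 8 h medium. Its change was -0.33 with NCFM, -0.38 for B. lactis 420 and -0.26 for Ls-33, and all were called. SDF2L1, a partner of the BiP cochaperones, was lower with NCFM at -0.44 (SE 0.11, adjusted p = 0.00567) and with Ls-33 at -0.38 (SE 0.11, adjusted p = 0.0128), and changed by -0.13 with B. lactis 420, which was not called. Calnexin (CANX), the membrane lectin chaperone, changed little, by -0.16 and -0.11 in the called comparisons with NCFM and B. lactis 420 and by -0.10 with Ls-33. HSPA13, an Hsp70 relative of the ER, was the chaperone called higher on its representing probe set, with signals of 9.52 and 9.38 with Ls-33 against 9.02 and 9.03 in medium and a change of 0.42 (SE 0.0927, adjusted p = 0.00127). It was not called with NCFM (-0.01) or B. lactis 420 (-0.02). Its second probe set was not called with Ls-33 (0.14) and was called lower with NCFM (-0.38). PPIB, the ER cyclophilin B that turns proline bonds, was called in none of the 3 and changed by -0.09, -0.07 and -0.01, while its second probe set was called lower with NCFM (-0.22). Single arrays decided several of these calls. HYOU1 with Ls-33 became -0.24 without 8 h medium replicate 2 (adjusted p = 0.073) and -0.21 without Ls-33 co-culture replicate 1 (adjusted p = 0.114). SDF2L1 became -0.39 without 8 h medium replicate 2 (adjusted p = 0.0565) with NCFM, and -0.33 without 8 h medium replicate 2 (adjusted p = 0.0948) and -0.27 without Ls-33 co-culture replicate 1 (adjusted p = 0.163) with Ls-33. CANX with NCFM became -0.12 without 8 h medium replicate 2 (adjusted p = 0.107), and its call with B. lactis 420 was lost without any of 9 arrays, the change then being between -0.12 and -0.07 (adjusted p = 0.055 to 0.373). Its 3 other probe sets above the floor were called lower with all 3 strains, at -0.35 to -0.51 with B. lactis 420 and -0.25 to -0.34 with Ls-33.

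Calreticulin (CALR), the soluble lectin chaperone, is the member whose probe sets were called in opposite directions. The probe set that represents it in all counts here gave 6.66 and 6.60 with NCFM, 6.88 and 6.98 with B. lactis 420 and 7.27 and 7.12 with Ls-33, against 7.71 and 7.86 in 8 h medium. By this probe set CALR was lower, with changes of -1.16 (SE 0.12, adjusted p = 3.10e-07) with NCFM, -0.86 (SE 0.12, adjusted p = 1.28e-05) with B. lactis 420 and -0.60 (SE 0.12, adjusted p = 5.35e-04) with Ls-33. The first of 2 further probe sets, both with the suffix _x_at, gave 8.16 and 7.80 with NCFM, 7.48 and 7.81 with B. lactis 420 and 7.83 and 7.51 with Ls-33, against 6.22 and 7.42 in medium, where the medium arrays were more than 1 log2 unit apart. The second gave 7.87 and 6.94 with NCFM, 7.40 and 6.97 with B. lactis 420 and 7.51 and 7.48 with Ls-33, against 6.43 and 6.41 in medium. When every probe set was tested on its own, both of these were called higher in all 3 co-cultures, by 1.16 and 0.99 with NCFM, 0.82 and 0.76 with B. lactis 420 and 0.85 and 1.08 with Ls-33. The suffix _x_at marks probes that may also bind other transcripts. The direction of CALR with live bacteria therefore depends on the probe set, and the cause was not tested.

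**Figure D3:**
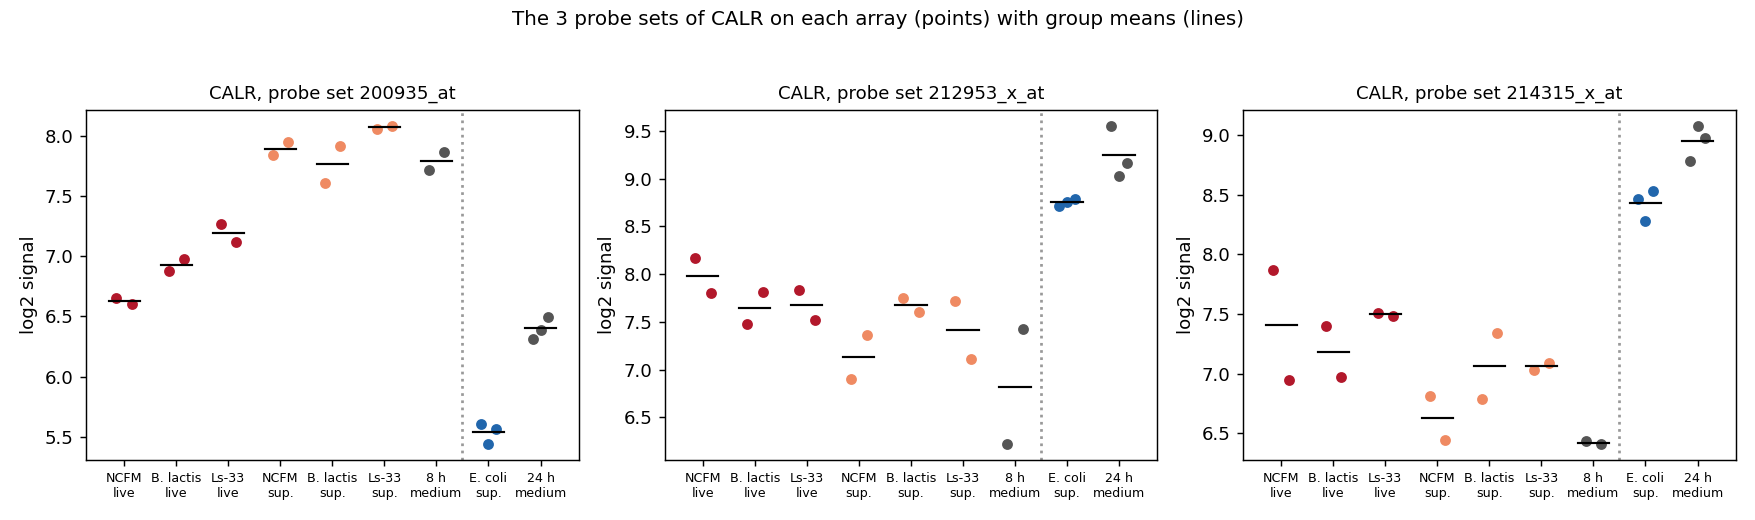
Log2 signal of the 3 CALR probe sets (panels) on each array (points) in the 9 groups, with group means as lines and a dotted line between the array sets. The first panel shows the live co-cultures below 8 h medium and the other panels show them above it, while E. coli supernatant lies below 24 h medium in all 3 panels.

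Of the 5 disulfide isomerases with ERP44, 5 were lower for NCFM, 5 for B. lactis 420 and 4 for Ls-33. Of all genes, 18.4%, 16.9% and 19.3% were lower in the same order of strains. PDIA4 (ERp72) had signals of 10.72 and 10.77 with NCFM, 10.68 and 10.84 with B. lactis 420 and 10.88 and 10.77 with Ls-33, against 11.28 and 11.10 in 8 h medium. Its change was -0.45 (SE 0.0639, adjusted p = 2.13e-05) with NCFM, -0.43 (SE 0.0639, adjusted p = 3.07e-05) with B. lactis 420 and -0.37 (SE 0.0639, adjusted p = 1.47e-04) with Ls-33. PDIA3 (ERp57), the isomerase that works with calreticulin and calnexin, had signals of 12.00 and 11.87 with NCFM, 11.99 and 12.04 with B. lactis 420 and 12.00 and 12.05 with Ls-33, against 12.28 and 12.25 in 8 h medium. It changed by -0.33 (SE 0.0451, adjusted p = 1.19e-05) with NCFM, -0.24 (SE 0.0451, adjusted p = 2.88e-04) with B. lactis 420 and -0.24 (SE 0.0451, adjusted p = 3.10e-04) with Ls-33. PDIA6 (P5) changed by -0.24, -0.22 and -0.15 in the same order of strains, and ERP44, which retrieves unfinished proteins to the ER, by -0.40, -0.29 and -0.27, all called. P4HB, the founding protein disulfide isomerase, was called with NCFM (-0.26) and B. lactis 420 (-0.16) and not with Ls-33 (-0.10), although its 6 co-culture arrays also lay below both medium arrays. Its 2 other probe sets were called lower with Ls-33 (-0.45 and -0.26). Without single arrays the P4HB change with B. lactis 420 was -0.15 without 8 h medium replicate 2 (adjusted p = 0.0661) and -0.13 without B. lactis 420 co-culture replicate 1 (adjusted p = 0.108), and that of PDIA6 with Ls-33 was -0.12 without Ls-33 co-culture replicate 1 (adjusted p = 0.0891). ERP44 was called on its brightest probe set, and its 2 dim probe sets were called in no co-culture. A further PDIA3 probe set did not call the fall of that gene with Ls-33.

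HERPUD1, a membrane scaffold of the degradation complex and a classic target of the unfolded protein response, showed the largest change of any member with B. lactis 420 and Ls-33. Its log2 signal was 10.14 and 10.29 with NCFM, 10.24 and 10.32 with B. lactis 420 and 9.87 and 9.87 with Ls-33, against 11.33 and 11.39 in 8 h medium. Every co-culture array lay more than 1 log2 unit below the medium arrays, and Ls-33 was lowest. The change was -1.14 (SE 0.0576, adjusted p = 1.23e-11) with NCFM, -1.08 (SE 0.0576, adjusted p = 2.62e-11) with B. lactis 420 and -1.49 (SE 0.0576, adjusted p = 1.46e-13) with Ls-33, that is 2.21-fold lower, 2.11-fold lower and 2.81-fold lower. EDEM1, a lectin that trims mannose from proteins marked for degradation, had signals of 6.48 and 6.64 with NCFM, 6.62 and 6.75 with B. lactis 420 and 6.75 and 6.69 with Ls-33, against 7.51 and 7.54 in 8 h medium. The 3 strains were close to each other, with changes of -0.97 (SE 0.11, adjusted p = 1.91e-06) with NCFM, -0.84 (SE 0.11, adjusted p = 1.09e-05) with B. lactis 420 and -0.80 (SE 0.11, adjusted p = 1.46e-05) with Ls-33. OS9, a lectin that delivers trimmed glycoproteins to the ligase complex, had signals of 9.54 and 9.23 with NCFM, 9.42 and 9.47 with B. lactis 420 and 9.48 and 9.39 with Ls-33, against 10.05 and 10.04 in 8 h medium. Its change was -0.66 (SE 0.0806, adjusted p = 3.04e-06) with NCFM, -0.60 (SE 0.0806, adjusted p = 9.51e-06) with B. lactis 420 and -0.61 (SE 0.0806, adjusted p = 6.09e-06) with Ls-33. The other 5 tested genes of this role were not called with any live strain on the probe sets that represent them. These were SEL1L, the partner of the ligase, EDEM2, which makes the first mannose cut, and DERL1, DERL2 and DERL3, which form the membrane exit. Their changes ran from -0.22 (DERL3 with Ls-33) to 0.16 (DERL3 with NCFM), and DERL3 lay near the floor at signals of 2.45 to 3.10 over the probiotic set. Further probe sets of 2 of these genes were called. The 3 of SEL1L were lower with NCFM (-0.61, -0.59 and -0.73) and 1 of them with B. lactis 420 (-0.45). Of the 3 of DERL1, 1 was lower with NCFM (-0.52) and Ls-33 (-0.32).

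**Figure D4:**
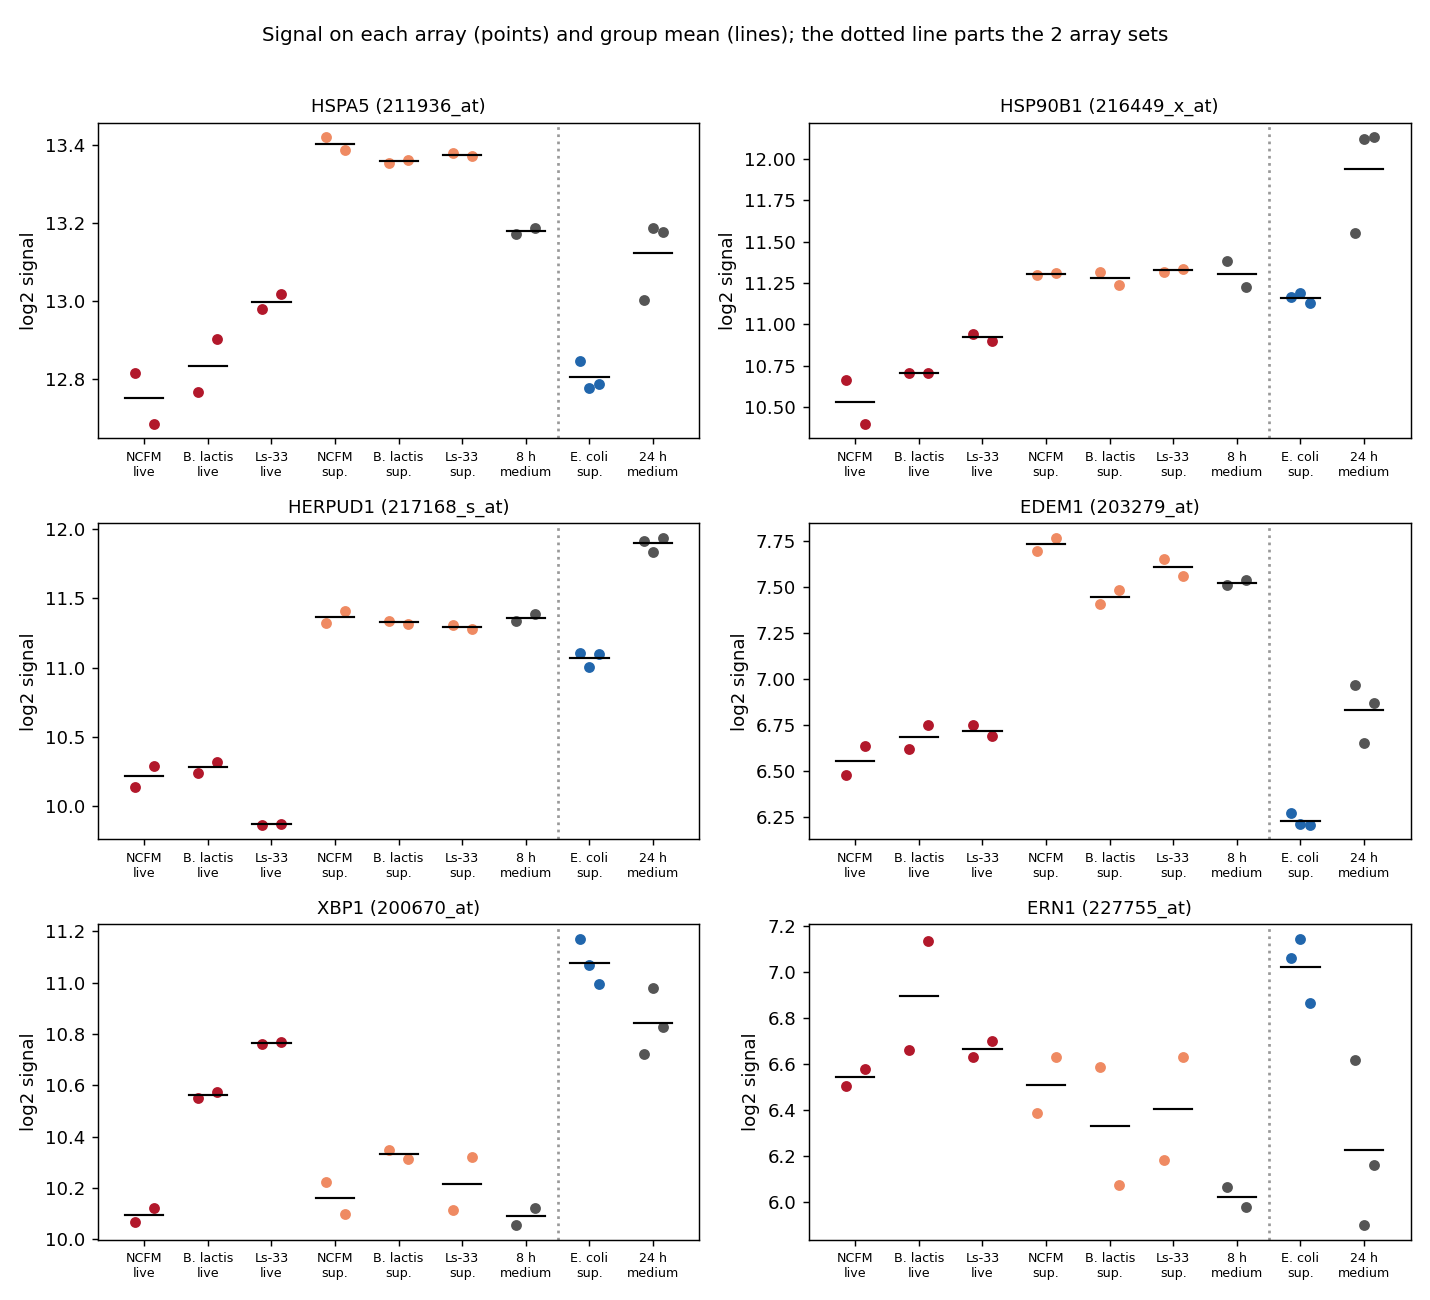
Log2 signal of 6 members (panels, each on its own axis) on every array (points) with group means (lines), treatments left of the medium of their set and a dotted line between the sets. HSPA5, HSP90B1, HERPUD1 and EDEM1 are lower in the live co-cultures than in 8 h medium and XBP1 is higher with B. lactis 420 and Ls-33, while the probiotic supernatant groups lie near or above 8 h medium. With E. coli supernatant HSPA5, HSP90B1, HERPUD1 and EDEM1 lie below 24 h medium.

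The sensors were mixed, with ERN1 and XBP1 called higher and ATF6 called lower on the probe set that represents it. XBP1 had signals of 10.07 and 10.12 with NCFM, 10.55 and 10.57 with B. lactis 420 and 10.76 and 10.77 with Ls-33, against 10.05 and 10.12 in 8 h medium. NCFM lay on the medium arrays, B. lactis 420 above them and Ls-33 highest, with changes of 0.01 (SE 0.0671, adjusted p = 0.961) with NCFM, 0.47 (SE 0.0671, adjusted p = 1.77e-05) with B. lactis 420 and 0.68 (SE 0.0671, adjusted p = 1.45e-07) with Ls-33. The Ls-33 value is 1.6-fold higher. Spliced and unspliced XBP1 mRNA were not measured apart. ERN1 had signals of 6.50 and 6.58 with NCFM, 6.66 and 7.14 with B. lactis 420 and 6.63 and 6.70 with Ls-33, against 6.06 and 5.98 in 8 h medium. All 6 co-culture arrays lay above both medium arrays, with changes of 0.52 (SE 0.19, adjusted p = 0.0381) with NCFM, 0.88 (SE 0.19, adjusted p = 0.00122) with B. lactis 420 and 0.64 (SE 0.19, adjusted p = 0.0107) with Ls-33. ATF6 had signals of 6.84 and 7.05 with NCFM, 6.57 and 6.77 with B. lactis 420 and 7.03 and 6.78 with Ls-33, against 7.35 and 7.63 in 8 h medium. On this probe set the changes were -0.55 (SE 0.14, adjusted p = 0.0054) with NCFM, -0.82 (SE 0.14, adjusted p = 1.69e-04) with B. lactis 420 and -0.59 (SE 0.14, adjusted p = 0.00268) with Ls-33. Of its 3 other probe sets, 1 was called lower with B. lactis 420 (-0.49) and 0 with NCFM or Ls-33, where their changes were -0.26, -0.00 and 0.22 with NCFM and -0.16, -0.03 and 0.09 with Ls-33. CREB3, a membrane-held transcription factor related to ATF6, was called with NCFM (-0.36, SE 0.10, adjusted p = 0.0101), and EIF2AK3 with no live strain (-0.07, -0.17 and 0.06). Single arrays carried part of this. The ERN1 change was between 0.48 and 0.56 without 8 h medium replicate 1 or 2 or NCFM co-culture replicate 1 or 2 (adjusted p = 0.0787 to 0.152) with NCFM, and 0.60 without 8 h medium replicate 2 (adjusted p = 0.0653) and 0.61 without Ls-33 co-culture replicate 2 (adjusted p = 0.0634) with Ls-33. The ATF6 change was -0.41 without 8 h medium replicate 2 (adjusted p = 0.0887) and -0.45 without NCFM co-culture replicate 1 (adjusted p = 0.0541) with NCFM, and -0.45 without 8 h medium replicate 2 (adjusted p = 0.0546) with Ls-33. The CREB3 change with NCFM was -0.31 without 8 h medium replicate 1 (adjusted p = 0.0759) and -0.26 without NCFM co-culture replicate 2 (adjusted p = 0.109). The second XBP1 probe set, near the floor, was called higher with NCFM (0.47) and not with the other strains.

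The remaining members are secreted or lie outside these roles. SEC61B, a subunit of the channel through which new chains enter the ER, was higher in all 3 co-cultures, by 0.18, 0.17 and 0.29. CRELD2, a secreted ER stress protein, was higher with B. lactis 420 at 0.37 (SE 0.11, adjusted p = 0.0142) and Ls-33 at 0.35 (SE 0.11, adjusted p = 0.0166). MANF, a secreted factor induced by ER stress, was lower with NCFM at -0.34 (SE 0.0692, adjusted p = 7.51e-04). WFS1, the ER membrane protein wolframin, was not called. Without single arrays SEC61B became 0.14 without 8 h medium replicate 2 (adjusted p = 0.108) with NCFM, and between 0.13 and 0.18 without 8 h medium replicate 2 or B. lactis 420 co-culture replicate 1 or 2 (adjusted p = 0.0514 to 0.149) with B. lactis 420. CRELD2 became 0.29 without 8 h medium replicate 1 (adjusted p = 0.125) and 0.35 without B. lactis 420 co-culture replicate 1 (adjusted p = 0.0789) with B. lactis 420, and 0.28 without 8 h medium replicate 1 (adjusted p = 0.14) and 0.20 without Ls-33 co-culture replicate 2 (adjusted p = 0.263) with Ls-33.

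Part of the group differed between the live strains. In the F-test over the 3 live strains 10 members were called, where 13.7% of all genes were. The range of the co-culture means was widest for XBP1, at 0.67 log2 units (adjusted p = 2.66e-06), then DNAJB9 at 0.66 (adjusted p = 4.09e-05) and CALR at 0.56 (adjusted p = 0.00919). Ls-33 lay above NCFM in 10 members, where 8.13% of all genes did, and below it in 1, where 6.55% did. The 10 were XBP1, DNAJB9, CALR, HSPA13, HSP90B1, DNAJC3, DNAJB11, MANF, HSPA5 and P4HB, with differences of 0.16 to 0.67. Of these, 7 are chaperones or cochaperones, a role that holds 11 of the 33 members tested. The exception was HERPUD1, lower with Ls-33 than with NCFM, at -0.35 (SE 0.0576, adjusted p = 3.54e-04), and than with B. lactis 420, at -0.41 (SE 0.0576, adjusted p = 2.94e-04). B. lactis 420 exceeded NCFM in XBP1, DNAJB9 and DNAJB11, where 2.28% of all genes were higher, and was called lower by limma in 0, where 0.759% were. At an unadjusted p under 0.05 B. lactis 420 was also lower in 0, and the share of all genes at that threshold is not given here. Ls-33 exceeded B. lactis 420 in HSPA13 (0.44) and HSPA5 (0.16), where 2.88% of all genes were higher, and was below it in HERPUD1 alone, where 2.7% were. Neither rise over B. lactis 420 was called without a trend in the variance model. HSPA13 became 0.29 without B. lactis 420 co-culture replicate 1 (adjusted p = 0.186) and 0.37 without Ls-33 co-culture replicate 1 (adjusted p = 0.122). HSPA5 became between 0.10 and 0.18 without B. lactis 420 co-culture replicate 1 or Ls-33 co-culture replicate 1 or 2 or Ls-33 supernatant replicate 1 or 2 (adjusted p = 0.0503 to 0.406), and its second probe set gave 0.05. These contrasts use no medium array. Without a trend in the variance model 5 members were called in the F-test. The first _x_at probe set of CALR gave the opposite sign for Ls-33 minus NCFM (-0.31), as did the second XBP1 probe set, near the floor, for Ls-33 minus NCFM (-0.30) and B. lactis 420 minus NCFM (-0.39).

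Few members were called with the probiotic supernatants, and their counts lay near the shares of all genes. With NCFM supernatant 2 members were higher and 1 lower than in 8 h medium, where 5.28% and 5.98% of all genes were. With B. lactis 420 supernatant 3 were higher and 2 lower, against 5.98% and 9.2% of all genes. With Ls-33 supernatant 4 were higher and 1 lower, against 8.48% and 8.14% of all genes. Cells had the supernatants for 24 h and the medium of this set for 8 h, so treatment and time cannot be told apart, and none of these calls was made without a trend in the variance model. HSPA5 had signals of 13.42 and 13.39 with NCFM supernatant, 13.35 and 13.36 with B. lactis 420 supernatant and 13.38 and 13.37 with Ls-33 supernatant, against 13.17 and 13.19 in 8 h medium. All 6 supernatant arrays lay above both medium arrays, with changes of 0.22 (SE 0.0445, adjusted p = 0.0028) with NCFM, 0.18 (SE 0.0445, adjusted p = 0.0103) with B. lactis 420 and 0.20 (SE 0.0445, adjusted p = 0.00487) with Ls-33. The second HSPA5 probe set, with less signal, called none of these rises. DNAJC3 had signals of 11.49 and 11.28 with NCFM supernatant, 11.32 and 11.44 with B. lactis 420 supernatant and 11.40 and 11.28 with Ls-33 supernatant, against 11.07 and 11.06 in 8 h medium. On its representing probe set it rose by 0.32 (SE 0.0727, adjusted p = 0.00729) with NCFM, 0.32 (SE 0.0727, adjusted p = 0.00629) with B. lactis 420 and 0.28 (SE 0.0727, adjusted p = 0.0127) with Ls-33. The probe set next in signal was also called higher, by 0.30, 0.24 and 0.36, and the other two were not called, 1 of them at 0.08, -0.11 and 0.02. Leaving out 1 array changed HSPA5 with B. lactis 420 supernatant to between 0.17 and 0.19 without 8 h medium replicate 1 or 2 or B. lactis 420 supernatant replicate 2 (adjusted p = 0.052 to 0.0697). It changed DNAJC3 to 0.32 without 8 h medium replicate 2 (adjusted p = 0.0521) and 0.21 without NCFM supernatant replicate 1 (adjusted p = 0.161) with NCFM supernatant, to 0.25 without B. lactis 420 supernatant replicate 2 (adjusted p = 0.0912) with B. lactis 420 supernatant, and to between 0.21 and 0.28 without 8 h medium replicate 1 or 2 or Ls-33 supernatant replicate 1 (adjusted p = 0.0627 to 0.139) with Ls-33 supernatant.

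The cochaperone partner SDF2L1 went the other way, with signals of 8.82 and 9.27 with NCFM supernatant, 8.93 and 8.78 with B. lactis 420 supernatant and 8.83 and 8.79 with Ls-33 supernatant, against 9.24 and 9.34 in 8 h medium. It was lower with B. lactis 420 supernatant, at -0.43 (SE 0.11, adjusted p = 0.015), and with Ls-33 supernatant, at -0.48 (SE 0.11, adjusted p = 0.00722), and changed by -0.24 (SE 0.11, adjusted p = 0.195) with NCFM supernatant, where the 2 arrays differed. DNAJB11 had signals of 10.78 and 10.74 with NCFM supernatant, 10.75 and 10.72 with B. lactis 420 supernatant and 10.81 and 10.80 with Ls-33 supernatant, against 10.93 and 10.91 in 8 h medium. It was called lower with B. lactis 420 supernatant (-0.18, SE 0.05, adjusted p = 0.0196). XBP1 had signals of 10.35 and 10.31 with B. lactis 420 supernatant against 10.05 and 10.12 in medium, a rise of 0.24 (SE 0.0671, adjusted p = 0.0195). OS9 had 9.71 and 9.79 with NCFM supernatant against 10.05 and 10.04 in medium, a change of -0.29 (SE 0.0806, adjusted p = 0.0233). With Ls-33 supernatant, PDIA3 had 12.43 and 12.40 against 12.28 and 12.25 in medium (0.15, SE 0.0451, adjusted p = 0.031), and HSPA13 9.28 and 9.35 against 9.02 and 9.03 (0.29, SE 0.0927, adjusted p = 0.0391). The members next in line did not pass the test, namely CRELD2 (0.31) and EIF2AK3 (0.19) with NCFM supernatant, CREB3 (-0.29) with B. lactis 420 supernatant and PDIA6 (0.12) with Ls-33 supernatant. The limma F-test among the 3 supernatants called 0 members, where 4 of all genes (0.0337%) were called. In this test 1 of 33 members had an unadjusted p under 0.05, and the share of all genes at that threshold is not given here. The second probe sets of OS9 (-0.25) and HSPA13 (0.07) did not call these changes. Neither further PDIA3 probe set called its rise, nor did the second XBP1 probe set, near the floor, call that of XBP1. Most of these small calls rested on single arrays. SDF2L1 became -0.38 without 8 h medium replicate 2 (adjusted p = 0.121) and -0.35 without B. lactis 420 supernatant replicate 2 (adjusted p = 0.14) with B. lactis 420 supernatant, and -0.43 without 8 h medium replicate 2 (adjusted p = 0.0736) and -0.46 without Ls-33 supernatant replicate 2 (adjusted p = 0.0663) with Ls-33 supernatant. For DNAJB11 with B. lactis 420 supernatant the change was between -0.19 and -0.17 without 8 h medium replicate 1 or 2 or B. lactis 420 supernatant replicate 1 or 2 (adjusted p = 0.0556 to 0.122). For XBP1 with the same supernatant it was between 0.21 and 0.28 without 8 h medium replicate 1 or 2 or B. lactis 420 supernatant replicate 1 or 2 (adjusted p = 0.0504 to 0.125). For OS9 with NCFM supernatant it was between -0.33 and -0.26 without 8 h medium replicate 1 or 2 or NCFM supernatant replicate 1 or 2 (adjusted p = 0.0569 to 0.175). With Ls-33 supernatant it was between 0.13 and 0.16 without 8 h medium replicate 1 or 2 or Ls-33 supernatant replicate 1 or 2 (adjusted p = 0.0828 to 0.159) for PDIA3, and between 0.25 and 0.33 without 8 h medium replicate 1 or 2 or Ls-33 supernatant replicate 1 or 2 (adjusted p = 0.0864 to 0.23) for HSPA13.

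Live cells and supernatant of the same strain were also set against each other, a contrast in which format and time (8 h and 24 h) cannot be told apart. With NCFM 20 members were lower in live co-culture than with supernatant, where 18.3% of all genes were, and limma called 0 higher, where 18.6% were. At an unadjusted p under 0.05 also 0 were higher with NCFM, and the share of all genes at that threshold is not given here. With B. lactis 420 17 were lower and 3 higher, against 15.7% and 22.2% of all genes. With Ls-33 13 were lower and 2 higher, against 16.3% and 16.6% of all genes. HERPUD1 differed by -1.15, -1.04 and -1.42 in the order NCFM, B. lactis 420 and Ls-33, EDEM1 by -1.18, -0.76 and -0.89, and HSPA5 by -0.65, -0.52 and -0.38, all called. For HSPA5 the sign of the change against medium was negative with live cells and positive with supernatant of each strain. XBP1 was higher in live co-culture than with supernatant for B. lactis 420 (0.23) and Ls-33 (0.55) and not called for NCFM (-0.07). For B. lactis 420, the other higher calls were ERN1 (0.57) and SDF2L1 (0.30), and 0 of the 3 were made without a trend in the variance model.

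ER folding and degradation genes were also lower with E. coli supernatant, in a comparison where most genes were called. Of 32 members tested, 15 were lower and 9 higher than in 24 h medium, where 27.8% and 36.3% of all genes were, 64.1% in either direction. Counted over 69 member probe sets, 34 were lower and 11 higher, against 26.8% and 34.5% of all probe sets. DERL3 was below the floor in this set, with a mean of 2.73. Chaperones counted 7 lower and 2 higher of 11, disulfide isomerases with ERP44 4 lower and 0 higher of 5, and degradation genes 4 lower and 1 higher of 7. Sensors and transcription factors counted 4 higher and 0 lower of 5. The median log2 change of all members was -0.13, against 0.048 for all genes.

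OS9 showed the largest fall, with signals of 8.25, 8.20 and 8.30 with E. coli supernatant, against 9.68, 9.65 and 9.64 in 24 h medium. The groups did not overlap, and the change was -1.41 (SE 0.0743, adjusted p = 1.71e-08), 2.66-fold lower. HERPUD1 had 11.11, 11.01 and 11.10 with E. coli supernatant, against 11.91, 11.83 and 11.93 in 24 h medium, a change of -0.82 (SE 0.0518, adjusted p = 6.53e-08). SEL1L had 8.34, 8.21 and 8.36 with E. coli supernatant, against 9.19, 9.41 and 9.23 in 24 h medium. Its change of -0.97 (SE 0.0884, adjusted p = 1.45e-06) is 1.96-fold lower, and its 3 other probe sets were called lower too. EDEM1 fell by 0.60 on the log2 scale. DERL2 rose, with 7.27, 7.26 and 7.41 with E. coli supernatant, against 6.53, 6.76 and 6.83 in 24 h medium and a change of 0.61 (SE 0.12, adjusted p = 8.43e-04). A further DERL1 probe set was called higher as well (0.69). Among the isomerases, PDIA4 had 9.52, 9.61 and 9.44 with E. coli supernatant, against 10.42, 10.68 and 10.59 in 24 h medium, a change of -1.04 (SE 0.079, adjusted p = 3.08e-07). PDIA6 had 11.69, 11.53 and 11.56 with E. coli supernatant, against 12.05, 12.06 and 12.14 in 24 h medium (-0.49, SE 0.0533, adjusted p = 6.43e-06). PDIA3 had 11.70, 11.65 and 11.65 with E. coli supernatant, against 11.97, 12.21 and 12.03 in 24 h medium (-0.41, SE 0.0603, adjusted p = 8.92e-05). In none of these 3 did a treated array reach a medium array. A further PDIA3 probe set did not call the fall of that gene here. P4HB was lower by a smaller amount (-0.20), and ERP44 was not called (0.11).

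Among chaperones, HSPA5 had 12.85, 12.78 and 12.79 with E. coli supernatant, against 13.00, 13.19 and 13.18 in 24 h medium, a change of -0.32 (SE 0.0506, adjusted p = 1.50e-04). HSP90B1 had 11.17, 11.19 and 11.13 with E. coli supernatant, against 11.55, 12.12 and 12.13 in 24 h medium, a change of -0.77 (SE 0.12, adjusted p = 1.27e-04). In both genes the first medium array lay below the other two, but no treated array reached it. The second HSP90B1 probe set was not called here (-0.58). CALR was lower on all 3 of its probe sets here, with a change of -0.86 (SE 0.13, adjusted p = 1.10e-04) on the one that represents it, where it had 5.61, 5.44 and 5.57 with E. coli supernatant, against 6.32, 6.39 and 6.50 in 24 h medium. HYOU1 (-0.43), SDF2L1 (-0.63), DNAJC3 (-0.45) and CANX (-0.15) were also lower. DNAJB9 and HSPA13 were called higher, with 8.94, 8.92 and 8.93 with E. coli supernatant, against 8.62, 8.84 and 8.71 in 24 h medium for DNAJB9 and 8.94, 8.84 and 8.91 with E. coli supernatant, against 8.42, 8.81 and 8.71 in 24 h medium for HSPA13. These 2 calls were lost without single arrays, DNAJB9 then being between 0.15 and 0.21 without 24 h medium replicate 1 or 3 or E. coli supernatant replicate 1 or 2 or 3 (adjusted p = 0.103 to 0.132), and HSPA13 between 0.14 and 0.29 without 24 h medium replicate 1 or 3 or E. coli supernatant replicate 1 or 2 or 3 (adjusted p = 0.0711 to 0.14). DNAJC3 became -0.42 without 24 h medium replicate 3 (adjusted p = 0.0546) and -0.38 without E. coli supernatant replicate 3 (adjusted p = 0.0554), and its 2 dimmest probe sets gave uncalled changes of the other sign.

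ERN1 had signals of 7.06, 7.15 and 6.87 with E. coli supernatant, against 6.62, 5.90 and 6.16 in 24 h medium, a rise of 0.80 (SE 0.17, adjusted p = 0.00159). EIF2AK3 had 9.93, 9.78 and 9.78 with E. coli supernatant, against 9.29, 9.47 and 9.42 in 24 h medium, a rise of 0.44 (SE 0.0771, adjusted p = 3.49e-04). The gene of PERK, which no probiotic treatment changed past the threshold, was thus higher with E. coli supernatant. CREB3 had 7.91, 8.00 and 7.93 with E. coli supernatant, against 7.45, 6.86 and 7.34 in 24 h medium, a rise of 0.73 (SE 0.14, adjusted p = 7.66e-04), and its medium arrays spread over 0.59 log2 units. XBP1 had 11.17, 11.07 and 10.99 with E. coli supernatant, against 10.72, 10.98 and 10.83 in 24 h medium. Its rise of 0.24 (SE 0.0723, adjusted p = 0.0127) was small, and it became 0.23 without 24 h medium replicate 3 (adjusted p = 0.0502) and 0.19 without E. coli supernatant replicate 1 (adjusted p = 0.0694). ATF6 was not called (-0.11), although its dimmest probe set was called higher by 1.09. SEC61B (0.18) and CRELD2 (0.29) were higher, and MANF (0.01) and WFS1 (0.24) were not called. CRELD2 became between 0.28 and 0.30 without 24 h medium replicate 3 or E. coli supernatant replicate 1 or 3 (adjusted p = 0.0502 to 0.0843). Of the 12 members lower in all 3 live co-cultures, 10 were also lower with E. coli supernatant, which has control arrays of its own. That is 83.3% of these members and 66.7% of the 15 members lower with E. coli supernatant, and over all genes tested in both sets the same shares were 61.5% and 25.5%. The difference from all genes was not tested. The exceptions were ATF6 and ERP44.

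The promoter elements were set beside these changes. Of the 10 members with ERSE or ERSE-II, 8 were lower with live NCFM and 0 higher, 7 lower and 2 higher with live B. lactis 420, 7 lower and 2 higher with live Ls-33, and 8 lower and 2 higher with E. coli supernatant. The 2 higher genes were XBP1 and CRELD2 in each of the last 3 comparisons. Of the 20 tested members with a window but neither element, 11 were lower and 2 higher with NCFM, 7 and 2 with B. lactis 420, 5 and 3 with Ls-33, and 6 and 7 with E. coli supernatant. Of all genes tested, 18.4% were lower and 16.8% higher with live NCFM, and 16.9% and 18.3% with live B. lactis 420. The shares were 19.3% and 19.4% with live Ls-33, and 27.8% and 36.3% with E. coli supernatant. The E. coli counts of members without an element lay near these shares. CALR, 1 of the 10, was lower with live bacteria only on the probe set that represents it. The difference between these subsets was not tested. HERPUD1 and XBP1, whose elements are printed above, thus moved in opposite directions with live Ls-33.

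Other genes of the same pathways were read from lists that share no gene with the members. The PERK and ATF4 arm had 23 tested genes. In live co-cultures it was mixed, with 5 higher and 8 lower for NCFM (16.8% and 18.4% of all genes), 7 and 7 for B. lactis 420 (18.3% and 16.9% of all genes), and 6 and 9 for Ls-33 (19.4% and 19.3% of all genes). Among the higher genes, PSAT1, an enzyme of serine synthesis, rose by 1.19 with NCFM and 1.07 with B. lactis 420, and DDIT4, a stress-induced inhibitor of mTORC1 signalling, by 0.60, 0.59 and 0.63. TRIB3, a pseudokinase induced by ATF4 and CHOP, was lower, with changes of -1.77 (SE 0.0962, adjusted p = 3.61e-11) with NCFM, -1.38 (SE 0.0962, adjusted p = 1.30e-09) with B. lactis 420 and -1.28 (SE 0.0962, adjusted p = 2.86e-09) with Ls-33, and ATF4 itself was lower at -0.66, -0.47 and -0.66. With supernatant of NCFM, B. lactis 420 and Ls-33, 5, 5 and 6 of these genes were higher, where 5.28%, 5.98% and 8.48% of all genes were, and 2, 1 and 1 lower, where 5.98%, 9.2% and 8.14% were. In the same order SLC7A11, the cystine transporter, rose by 1.19, 1.14 and 1.22, PSAT1 by 0.87, 0.89 and 0.92, and DDIT4 by 0.57, 0.54 and 0.69. With E. coli supernatant 18 were higher and 3 lower, with a median of 0.81, where 36.3% and 27.8% of all genes were. ATF3, a stress-induced transcription factor, rose by 5.83 (SE 0.13, adjusted p = 5.89e-11), PPP1R15A (GADD34), which reverses PERK signalling, by 2.96 (SE 0.11, adjusted p = 1.07e-09), SLC7A11 by 2.15 (SE 0.0881, adjusted p = 2.32e-09) and ATF4 by 1.11 (SE 0.0481, adjusted p = 3.62e-09). DDIT3, which encodes the death-promoting factor CHOP, had 6.28, 6.31 and 6.25 with E. coli supernatant, against 4.92, 4.35 and 4.72 in 24 h medium. Its rise of 1.62 (SE 0.16, adjusted p = 3.43e-06) is 3.07-fold higher. With live Ls-33 DDIT3 had 5.10 and 5.12, against 5.63 and 5.69 in 8 h medium, a change of -0.55 (SE 0.16, adjusted p = 0.0113). With NCFM it had 5.60 and 5.32 and with B. lactis 420 5.27 and 5.33, and neither change was called.

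Further ER folding genes were called lower more often than higher with live bacteria and with E. coli supernatant. Of 26 tested, 9 were lower and 3 higher with live NCFM (18.4% and 16.8% of all genes), 8 and 4 with live B. lactis 420 (16.9% and 18.3% of all), 8 and 5 with live Ls-33 (19.3% and 19.4% of all), and 13 and 4 with E. coli supernatant (27.8% and 36.3% of all). ERO1A, the oxidase that recharges the disulfide isomerases, was lower, with changes of -0.93 (SE 0.0582, adjusted p = 3.22e-10) with NCFM, -0.67 (SE 0.0582, adjusted p = 2.93e-08) with B. lactis 420 and -0.16 (SE 0.0582, adjusted p = 0.0358) with Ls-33. It was higher with the supernatants, at 0.54 (SE 0.0582, adjusted p = 7.26e-06) with NCFM, 0.53 (SE 0.0582, adjusted p = 9.33e-06) with B. lactis 420 and 0.74 (SE 0.0582, adjusted p = 1.45e-07) with Ls-33. CALU, a calcium-binding protein of the secretory route, changed by -0.69, -0.61 and -0.48 with the live strains and by -0.70 with E. coli supernatant, all called. FKBP11, a prolyl isomerase of the secretory route, was lower in all 7 comparisons, with changes of -0.29 (NCFM supernatant) to -0.77 (E. coli supernatant). DNAJC10 (ERdj5), a reductase that assists degradation, was higher in all 7, by 0.28 (live NCFM) to 0.57 (live Ls-33).

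Genes of protein entry into the ER were called higher more often than lower, but with E. coli supernatant their share of higher calls was close to that of all genes. Of 21 tested genes of the translocon, signal peptidase and signal recognition particle, 6 were higher and 3 lower with live NCFM (16.8% and 18.4% of all genes), 8 and 3 with live B. lactis 420 (18.3% and 16.9% of all), 8 and 1 with live Ls-33 (19.4% and 19.3% of all), and 8 and 2 with E. coli supernatant (36.3% and 27.8% of all). SPCS3, a signal peptidase subunit, rose by 0.62 with live B. lactis 420 and 1.13 with E. coli supernatant, while its partner SPCS2 changed by -0.26 and -0.38, both called. Of 15 further degradation genes, 2, 4 and 4 were higher and 3, 3 and 2 lower with live NCFM, B. lactis 420 and Ls-33, which is near the shares of all genes just given, and 4 were higher and 6 lower with E. coli supernatant. FAM8A1, a cofactor of the ligase complex, was lower, with changes of -0.39, -0.66 and -0.76 with live strains and -0.57 with E. coli supernatant. Of 11 other sensors and regulators, 6 were lower with each live strain, where 18.4%, 16.9% and 19.3% of all genes were. Higher were 1, 0 and 0, where 16.8%, 18.3% and 19.4% were. With E. coli supernatant 5 were lower and 3 higher, where 27.8% and 36.3% of all genes were. CREB3L3, a membrane-held transcription factor of liver and gut, was lower, with changes of -1.74 (SE 0.14, adjusted p = 1.62e-08) with NCFM, -0.82 (SE 0.14, adjusted p = 1.89e-04) with B. lactis 420 and -0.68 (SE 0.14, adjusted p = 8.96e-04) with Ls-33. MBTPS1, the protease that makes the first cut in ATF6, was lower with all 3 live strains (-0.32, -0.26 and -0.35) and with E. coli supernatant, at -0.89 (SE 0.10, adjusted p = 8.88e-06). Of 14 tested heat shock genes of the cytosol, 7, 10 and 11 were higher with live NCFM, B. lactis 420 and Ls-33, where 16.8%, 18.3% and 19.4% of all genes were, and 0 were lower. With E. coli supernatant 8 were higher and 1 lower, where 36.3% and 27.8% of all genes were. HSPH1, a cytosolic chaperone of the Hsp110 family, rose by 1.24 (SE 0.0993, adjusted p = 1.05e-08) with NCFM, 1.29 (SE 0.0993, adjusted p = 5.43e-09) with B. lactis 420 and 1.43 (SE 0.0993, adjusted p = 8.77e-10) with Ls-33.

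**Figure D5:**
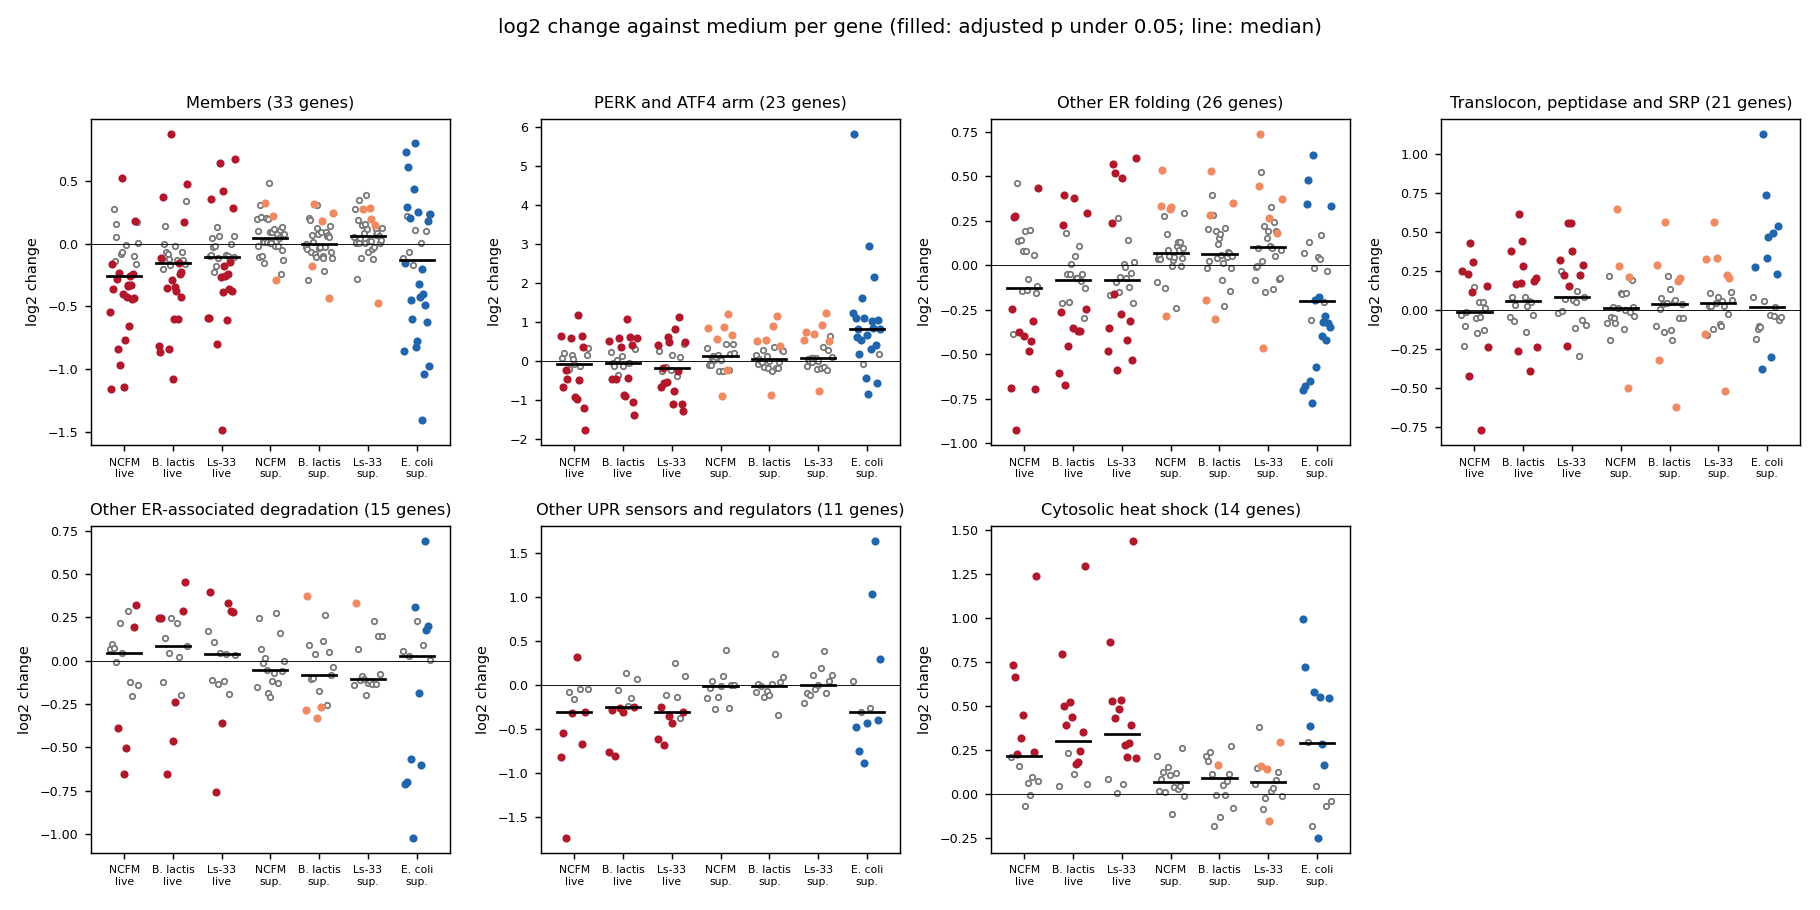
Log2 change of each tested gene against the medium of its own set in 7 treatments, for the members and 6 other lists (panels with separate axes), filled where the adjusted p is under 0.05 and with the median as a line. Members lie mostly below 0 in live co-cultures, cytosolic heat shock genes mostly above 0, and the PERK and ATF4 arm is highest with E. coli supernatant, where its median is 0.81.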

How the data were processed

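Values were the log2 probe set signals as deposited for 20 Affymetrix HG-U133 Plus 2.0 arrays, made with RMA per the submitters' processing notes. Whether the 2 array sets were normalized together is not given in the sources used here, and each set was tested on its own. Total RNA input was 5 µg in the probiotic set and 1 µg in the E. coli set, per the labels' protocols. Of 54675 probe sets, 41091 carried 1 gene symbol, 1801 several and 11721 none. Symbols were updated through Entrez IDs to RefSeq GRCh38.p14. A gene was represented by its probe set with the highest mean over the 20 arrays, leaving out _x_at probe sets where others existed. Genes above the 40th percentile of mean signal (2.74 in the probiotic set, 2.78 in the E. coli set) were fitted in limma 3.58.1 (R 4.3.3, lmFit and eBayes with a variance trend), all groups of a set sharing 1 spread. Calls needed a Benjamini-Hochberg adjusted p under 0.05 over 11865 genes, and a limma F-test compared the 3 strains. The fit was tested on simulated data. Members and lists were chosen with earlier results of these data known. Values by array are given for up to 6 members with the lowest adjusted p per comparison, the 6 with the widest strain range, HSPA5, HSP90B1, XBP1, HERPUD1 and DDIT3, and members whose probe sets were called in opposite directions. Up to 4 genes per list and comparison were eligible for naming. Values of further members were added after they were seen. Replicate numbers did not pair samples, since deviations of same-numbered arrays correlated at -0.104 to 0.057 (probiotic set) and at -0.138 to 0.036 (E. coli set). The number of arrays limits the precision. Alternatives varied the floor, the variance model, the groups fitted, the normalization, the probe set and a replicate block, and left out each array.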

Additional observations from a re-analysis of the deposited data

Results flagged for a closer look

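In 10 members the change with live bacteria differed among the 3 strains in the limma F-test, at a Benjamini-Hochberg adjusted p under 0.05 over all genes. Of all genes, 13.7% were called in this test. Fewer members were called without a trend in the variance model. The range of the 3 co-culture means on the log2 scale was 0.67 for XBP1, 0.66 for DNAJB9, 0.56 for CALR, 0.44 for HSPA13, 0.41 for HERPUD1, 0.39 for HSP90B1, 0.37 for DNAJC3, 0.26 for DNAJB11, 0.25 for MANF and 0.25 for HSPA5. HERPUD1 was lowest with Ls-33. HSPA13 was highest with Ls-33, and its means with NCFM (9.014) and B. lactis 420 (9.009) were close. The others were lowest with NCFM. For CALR this order holds on the probe set that represents it, and another CALR probe set gave the opposite sign for Ls-33 minus NCFM.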

How the results depend on the processing

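Of the results for single members, 10598 stayed on the same side of the threshold under an alternative. A further 319 lost their call, 137 gained one and 38 turned round. Each of the 38 was called in the main fit or under the alternative, and uncalled results that changed sign are among the 10598. Without a variance trend the counts of members higher were 0 with live NCFM, 0 with each probiotic supernatant, 0 for B. lactis 420 live minus supernatant, 0 for Ls-33 minus B. lactis 420 and 5 with E. coli supernatant, the counts lower were 0 with each supernatant of a probiotic strain, and the strain F-test called 5. Lower calls lost in that setting were CANX and DNAJC3 with live NCFM, and CANX and P4HB with live B. lactis 420. With live Ls-33 they were HSPA5, HYOU1, PDIA6 and SDF2L1, and with E. coli supernatant CANX and P4HB. Fitting only the groups compared gave 1 higher with live NCFM, 4 for Ls-33 minus B. lactis 420 and 1 for B. lactis 420 minus NCFM. Counting a gene by every probe set gave 4 higher with live NCFM, 4 with NCFM supernatant, 1 for NCFM live minus supernatant and 5 for B. lactis 420 minus NCFM. The probe set with the largest variance gave 1 higher with live NCFM, 3 with live Ls-33, 1 with NCFM supernatant, 1 with Ls-33 supernatant, 1 for Ls-33 live minus supernatant and 1 for Ls-33 minus B. lactis 420. A floor at the 60th percentile and a joint quantile normalization each gave 2 lower with NCFM supernatant. With a replicate block, 20 members were lower with live NCFM, 14 with live B. lactis 420, 13 with live Ls-33 and 15 with E. coli supernatant. Leaving out 1 array gave these ranges of members higher and lower: live NCFM 0 to 3 and 17 to 20, live B. lactis 420 2 to 4 and 13 to 15, live Ls-33 3 to 5 and 10 to 14, NCFM supernatant 1 to 3 and 0 to 2, B. lactis 420 supernatant 0 to 3 and 0 to 4, Ls-33 supernatant 1 to 6 and 0 to 2, E. coli supernatant 5 to 10 and 14 to 16. For live minus supernatant they were 0 to 0 and 18 to 20 (NCFM), 0 to 3 and 14 to 18 (B. lactis 420) and 1 to 2 and 12 to 14 (Ls-33), for Ls-33 minus NCFM 8 to 11 and 1 to 1, for Ls-33 minus B. lactis 420 0 to 3 and 1 to 1, for B. lactis 420 minus NCFM 2 to 4 and 0 to 0, and for the F-tests 8 to 10 (co-cultures) and 0 to 0 (supernatants). Each of the 38 reversals came from a member's further probe sets. With live NCFM these gave 1.16 and 0.99 for CALR, 0.39 for ERP44, 0.17 for HERPUD1 and 0.22 for ATF6. With live B. lactis 420 they gave 0.82 and 0.76 for CALR, 0.021 and 0.17 for ERP44, 0.061 for HERPUD1 and 0.045 for ATF6. With live Ls-33 they gave 0.85 and 1.08 for CALR, -0.32 for DERL1 and 0.089 for ATF6. With B. lactis 420 supernatant they gave -0.11 for DNAJC3 and -0.0088 for HSPA5. For live minus supernatant they gave 0.85 and 0.78 for CALR and 0.071 for ERP44 (NCFM), -0.20 for XBP1, 0.12 for CALR, 0.50 for ERP44 and -0.67 for DERL3 (B. lactis 420), and 0.26 and 0.44 for CALR and 0.071 for HERPUD1 (Ls-33). For Ls-33 minus NCFM they gave -0.30 for XBP1 and -0.31 for CALR, and for B. lactis 420 minus NCFM -0.39 for XBP1. With E. coli supernatant they gave 0.24 and 0.044 for DNAJC3, -0.27 for XBP1 and 1.09 for ATF6. The further HERPUD1 and XBP1 probe sets lie near the floor, and the cause of the reversals was not tested.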

Other observations

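Member probe sets annotated to a second gene as well were kept out of all counts. Of these 3, the first (an _s_at probe set) had a mean log2 signal of 10.4 with live NCFM, 10.6 with live B. lactis 420 and 10.8 with live Ls-33, against 11.3 in 8 h medium, and 10.9 with E. coli supernatant, against 11.9 in 24 h medium. The second, also an _s_at probe set, had 12.3, 12.3 and 12.5 with the same live strains, against 12.6 in 8 h medium, and 12.3 with E. coli supernatant, against 12.8 in 24 h medium. The third had 6.76, 6.76 and 6.70 with the live strains, above the 6.53 of 8 h medium, and 6.26 with E. coli supernatant, against 7.10 in 24 h medium. The first and the second are annotated to HSP90B1 and the microRNA gene MIR3652, and the third to SYVN1 and the microRNA gene MIR6751. The annotation thus does not give their signals to 1 gene.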
